A study of Danio rerio with 24 samples.

Results

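The mitochondrial ribosomal proteins are the proteins, encoded in the nucleus, that build the mitoribosome, the ribosome found inside mitochondria. Their genes were chosen by name, as every row of the deposited gene table whose symbol begins with mrpl or mrps and a digit, which gave 76 genes of 18987. RNA-seq with poly-A capture was performed on heart ventricles of adult wild-type zebrafish, each sample holding the RNA of 3 or 4 ventricles. The series has 6 groups of 4 samples: exercised fish with a cryoinjured ventricle and their non-exercised cryoinjured controls, each at 7 and at 14 days post injury (dpi), and non-exercised sham-operated fish at 7 and 14 dpi. Exercise was daily swimming in a tunnel, begun after the freezing injury and ended by sampling.

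The table has 0 columns of values per sample. What could be read from it for each gene was 1 value, the authors' mean normalized count, which is the number of reads assigned to a gene after correction for library depth, averaged by the authors over samples. Which samples entered that mean is not given in the sources used here. The other value columns, 7 in number, hold the authors' own comparisons of exercised and non-exercised ventricles and were not used, so whether these genes differed between exercised and non-exercised fish, or between time points, was not analysed here. No SD, n or p-value can be attached to a mean count. A mean count also grows with the length of a transcript, and transcript lengths were not used here, so a difference in mean count between 2 genes is a difference in reads and not in the number of RNA molecules.

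The mitoribosome translates the few messenger RNAs of the mitochondrial genome, all of which code for subunits of the oxidative phosphorylation system, the machinery that supplies most of the ATP of a beating heart. It has a small subunit, which holds the messenger RNA and reads its codons, and a large subunit, which joins amino acids and releases the new chain towards the inner membrane. Many of its proteins descend from proteins of bacterial ribosomes, and others are particular to mitochondria. All of them are made in the cytosol and imported, so that every mitoribosome depends on products of the nuclear genes described here.

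The mitoribosome was covered almost in full. Of 77 proteins placed in the mammalian mitoribosome under an MRPL or MRPS symbol, 75 had a row under that symbol. For mrpl50 there was no row, and the row of mrpl58 carried its older symbol ict1, which the choice by name did not take. By the first letters of their symbols 47 genes belonged to the large and 29 to the small subunit. By their place in the mammalian structure 49 belonged to the large and 26 to the small subunit, since the proteins of mrps30 and mrps18a sit in the large subunit. The remaining gene, mrps36, was listed in the current gene names as kgd4, a component of the alpha-ketoglutarate dehydrogenase complex, and is no longer counted as a ribosomal protein in mammals.

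The 76 rows carried 76 different symbols, so no member was listed more than once. For comparison, the 81 rows matched as cytosolic ribosomal proteins carried 78 symbols. The gene identifiers of 74 members were found in the current names, and 72 of these had the same symbol there. The identifiers given for mrpl22 and mrps15 were not among them. MRPL55 was listed there under the clone name zgc:171480.

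Every member had a mean count above 0, as did all but 9 of the 18987 genes. The mean counts ran from 92.5 normalized reads for mrpl53 to 894.4 for mrpl2, a range of 9.67 times, with a median of 273.5 and quartiles of 206.2 and 354.7. Of the 76 members, 61 lay within 2 times of the median on either side. All 76 lay above 79.6 normalized reads, the median of all genes in the table, and 40 lay above the upper quartile of all genes, 266.1. With the 15560 genes of at least 10 normalized reads taken as the background, the median of that background was 121.3 and 70 members lay above it. These are positions by number of reads, and the genes compared differ in length.

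**Figure D1:**
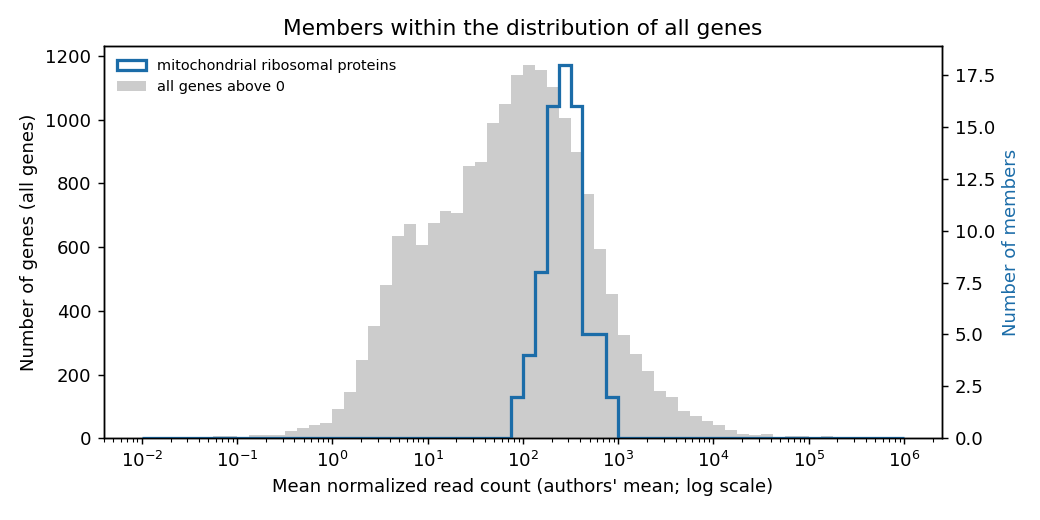
Number of genes against the mean normalized read count (log axis), with all genes above 0 in grey on the left axis and the 76 mitochondrial ribosomal protein genes as a blue outline on the right axis. The members form a single narrow peak between 92.5 and 894.4 normalized reads, with no member in the lower tail of all genes.

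The numbers of reads limit the precision that any measurement on these genes can reach. In a library of average depth, counting error alone would come to 3.34% of the value for mrpl2 and to 10.4% for mrpl53, if reads are taken as independent draws. The differences between samples, each a pool of ventricles, come on top of this and could not be estimated. Together the members held 0.198% of the 11824275 normalized reads of the table.

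The member with the most reads was mrpl2, with a mean count of 894.4. Its protein is one of the oldest parts of the large subunit and lies near the peptidyl transferase centre, where amino acids are joined. It was followed by mrps34, with 803.4, a small subunit protein particular to mitochondria. The next large subunit members were mrpl28, with 706.7, and mrpl16, with 636.4, both with counterparts in bacteria. The non-ribosomal mrps36 stood among them with 678.4. The 10 members with the most reads also included mrpl12 (608.5), mrps31 (587.9), mrpl38 (524.0), mrpl3 (521.4) and mrps9 (458.6). Both subunits, and both the class with bacterial counterparts and the class particular to mitochondria, were thus found at the top of the order by reads.

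At the other end, mrpl53 had a mean count of 92.5 and MRPL52 of 94.5, both coding for large subunit proteins particular to mitochondria. They were followed by mrpl22, with 106.6, one of the 2 members whose identifiers are absent from the current names. The small subunit member mrps10 had 109.9, and MRPL49, another protein particular to mitochondria, had 112.1. The 10 members with the fewest reads were completed by mrps28 (120.0), mrps17 (135.0), mrps21 (135.8), mrps23 (144.5) and mrpl1 (150.6). Between several neighbours in this order, among them mrpl53 and MRPL52, the difference was smaller than the counting error of a single average library. The values are means over samples, for which counting error is smaller than for a single library.

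**Figure D2:**
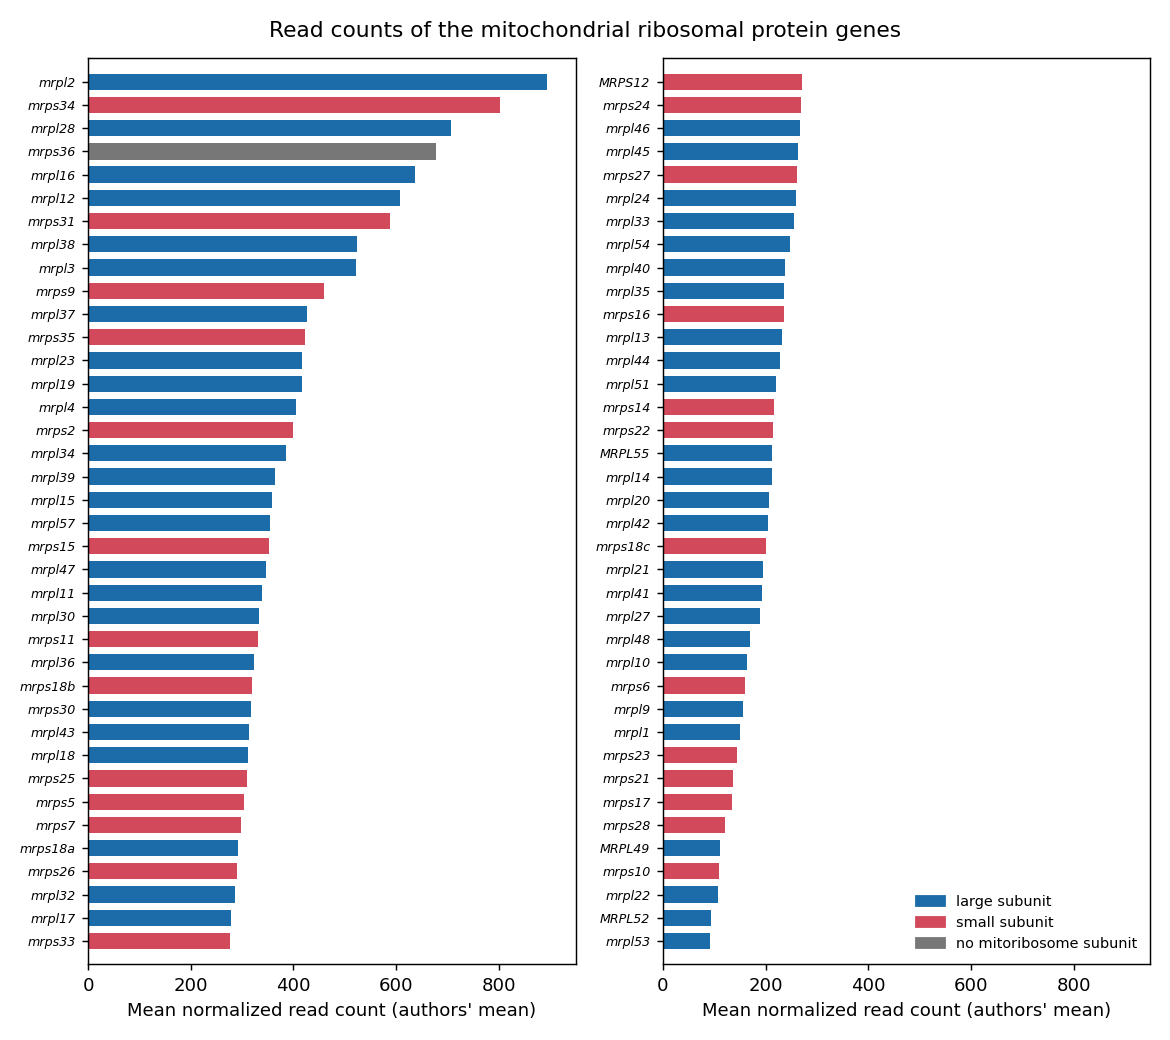
Mean normalized read count (horizontal axis, starting at 0) of each of the 76 genes, ordered from most to fewest reads over 2 panels and coloured by the subunit that holds the protein in mammals. Bars carry no error because the table gives 1 mean per gene. Large and small subunit genes are interspersed along the whole order, from mrpl2 at 894.4 to mrpl53 at 92.5.

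The 49 large subunit members had a median of 266.1 normalized reads and a range of 92.5 to 894.4. The 26 small subunit members had a median of 273.5 and a range of 109.9 to 803.4. The ranges overlapped over nearly their whole extent. Members were also put in classes by the systematic names of their proteins in the structure. The 46 members named as having a bacterial counterpart had a median of 274.6, and the 29 named as particular to mitochondria had a median of 266.1. Of mrps18a, mrps18b and mrps18c, which share a number, this naming placed only mrps18c with the bacterial counterparts. No test was made between these groups of genes, as genes are not replicates.

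The stalk at the side of the large subunit, which recruits the GTP-hydrolysing translation factors, is built on the proteins of mrpl10, mrpl11 and mrpl12. Their mean counts were 164.5, 339.5 and 608.5, which is 3.70 times between the lowest and the highest. The gene with the most reads of these, mrpl12, codes for the protein that is present in several copies per ribosome. Whether its read count is linked to that was not tested. Around the exit tunnel, through which the new chain leaves, mrpl23 had a mean count of 417.0, mrpl47 of 346.0 and mrpl24 of 258.5. Also at the exit, mrpl45, whose protein anchors the mitoribosome to the inner membrane, had 262.6. The lowest of this site was mrpl22, with 106.6.

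The central protuberance, which touches the small subunit and the transfer RNAs, was represented by 7 members between 168.8 normalized reads for mrpl48 and 524.0 for mrpl38. Its other members were mrpl18 (311.7), mrpl46 (266.1), mrpl40 (237.1), MRPL55 (213.2) and mrpl27 (189.2). In the small subunit, MRPS12, whose protein lies at the decoding centre, had a mean count of 270.0. Along the channel of the messenger RNA, mrps24 had 269.4, mrps5 had 304.0 and mrps35 had 423.0. These 4 members had the narrowest range of the sites described, 1.57 times. The sites hold unequal numbers of genes, however, and a range tends to widen with that number. The gene ptcd3 (515.2), whose protein lies at the entry of the messenger RNA, has no mrps symbol and was not counted here.

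**Figure D3:**
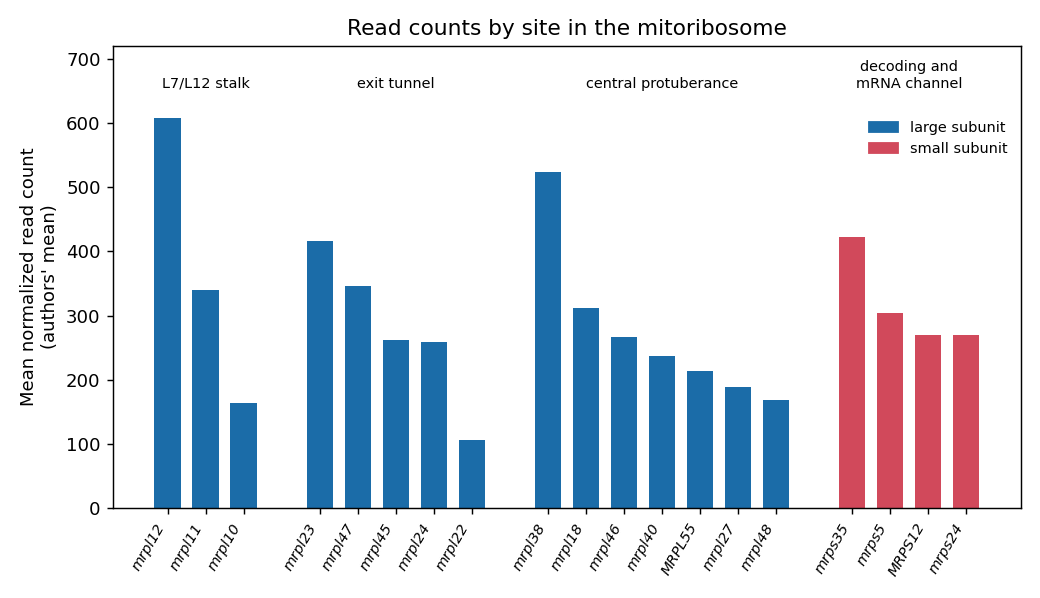
Mean normalized read count (vertical axis, starting at 0) of the members at 4 sites of the mitoribosome, coloured by subunit, without error bars. The stalk runs from 164.5 (mrpl10) to 608.5 (mrpl12), and the decoding and mRNA channel members lie between 269.4 and 423.0.

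In humans, inherited defects of MRPL3, MRPL44, MRPS14 and MRPS22 have been linked to cardiomyopathy in infancy. Their zebrafish counterparts were all read in these ventricles, as were nearly all genes of the table. The mean count was 521.4 for mrpl3, which lies near the peptidyl transferase centre, and 228.7 for mrpl44, whose protein is related to ribonuclease III. The small subunit members mrps14 and mrps22 had 217.1 and 214.7 normalized reads. The difference was smaller than their counting error in a single average library, 6.79% and 6.82%, which is larger than that of a mean over samples.

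Components of the mitoribosome without an mrpl or mrps symbol were set beside the members. The GTP-binding small subunit protein dap3 had 313.2 normalized reads, ptcd3, at the entry of the messenger RNA, had 515.2, aurkaip1 had 406.8 and chchd1 had 282.0. In the large subunit gadd45gip1 had 361.9. These 5 lay within the range of the members. The exception was ict1, the row of mrpl58, which codes for a peptidyl-tRNA hydrolase built into the large subunit. It had 40.8, below the lowest member and below the median of all genes, 79.6.

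The members were also set beside the genes of the cytosolic ribosome and of oxidative phosphorylation. The 81 cytosolic ribosomal protein genes had a median of 5479 normalized reads and held 4.19% of all reads, and the quartiles of their counts were 1.87 times apart, against 1.72 times for the mitochondrial ribosomal proteins. The 108 genes matched by symbol as nuclear oxidative phosphorylation genes, a list that takes in some assembly factors, had a median of 1611, with quartiles 6.91 times apart. The 13 protein-coding genes of the mitochondrial genome, which the mitoribosome translates, held 11.9% of all reads, with a median of 73017. Across the genes of a list the SD of the log2 count was 0.72 for the mitochondrial ribosomal proteins, 1.72 for the cytosolic ribosomal proteins, 2.60 for the nuclear oxidative phosphorylation genes and 2.81 for all genes above 0. Of the 81 cytosolic rows, 77 lay above the upper quartile of all genes, 266.1, but the lowest had 3.51. Such low rows raise the SD far more than the distance between quartiles. These spreads include differences in transcript length, and no test was made.

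**Figure D4:**
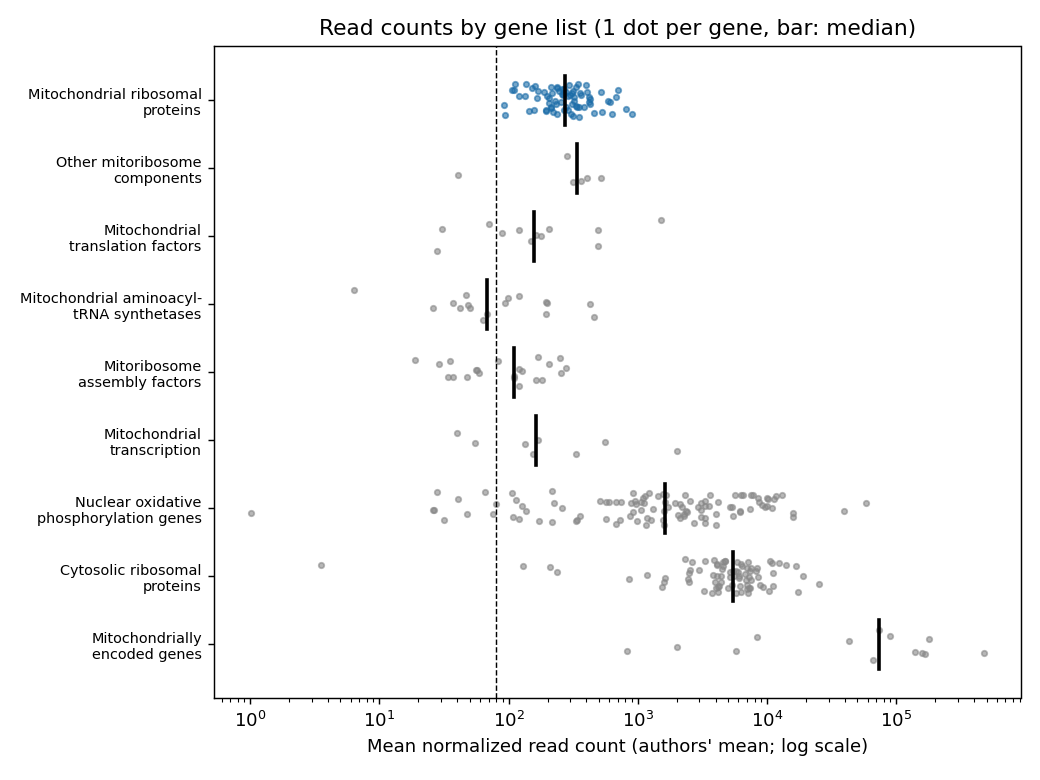
Mean normalized read count (log axis) of each gene as a dot, by gene list, with a black bar at each list's median and a dashed line at the median of all genes, 79.6. The blue dots of the mitochondrial ribosomal proteins all lie right of the dashed line and spread less than any other list of more than 10 genes. Of the shorter lists, the 6 other mitoribosome components had quartiles only 1.36 times apart, with ict1 far below the rest. By quartiles the difference from the cytosolic ribosomal proteins was small, 1.72 against 1.87 times.

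A few members lay next to another member or next to a gene of the respiratory chain. How often other genes lie beside such genes was not counted, so no trait of the members can be read from these pairs. Gene order was read from the RefSeq annotation of GRCz12tu, a later assembly than the GRCz10 used by the authors, in which 74 of the 76 symbols were found. Among protein-coding genes, mrps11 and mrpl46 were direct neighbours, with mean counts of 329.9 and 266.1, and were the only pair of members to be so. The genes mrpl47, mrpl20 and mrpl36 were direct neighbours of ndufb5, sdhb and ndufs6, subunits of respiratory complexes I and II. The mean counts were 346.0 for mrpl47 beside 2108 for ndufb5, 207.0 for mrpl20 beside 3098 for sdhb, and 323.4 for mrpl36 beside 1057 for ndufs6.

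The tissue label was checked against marker genes. Of the cardiomyocyte genes, vmhc, the ventricular myosin heavy chain, had 37309 normalized reads and the atrial myh6 had 3281, while myl7, tnnt2a, cmlc1 and actc1a, which do not separate the chambers, had between 55798 and 163295. Haemoglobin hbaa1 (25133), the fibroblast genes col1a1a (12777) and postnb (4010) and the endothelial genes kdrl, cdh5 and fli1a (1017 to 3550) were also read, as were the epicardial tcf21 (211.8) and tbx18 (250.2). The genes chosen for macrophages, mpeg1.1 and lcp1, had 234.9 and 123.7, and those chosen for neutrophils, lyz and mpx, had 43.2 and 16.3. Whether lcp1 marked macrophages alone was not tested. Of the genes chosen for tissues outside the ventricle, the bulbus arteriosus genes elnb and mylka had 335.1 and 242.4, with 4.58 for a second row listed as mylka, and the skeletal muscle genes mylpfa and tnnt3b had 160.5 and 74.7. Which cell types the reads of the mitochondrial ribosomal proteins came from was not tested, and in pooled ventricles fewer cells of a type and less RNA per cell cannot be told apart.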

How the data were processed

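Libraries were prepared with poly-A capture, and the submitters' processing notes name TopHat2 2.1.0, HTSeq 0.6.0, DESeq2 and the genome GRCz10, without parameters. The authors deposited 1 table with a mean normalized count per gene, a signal averaged over samples that is not divided by transcript length. The table also holds the authors' own results, none of which were used. They are a log2 fold change with its error, a test statistic and p-values before and after adjustment, and fold changes at 7 and 14 dpi. The column names of the log2 fold change and its p-values give no time point. No depth per sample can be given.

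The planned tests on counts per sample, the levels per kilobase of coding sequence and the promoter and protein features could not be made, as the table has 0 columns per sample and no lengths or sequences were used here. Medians, quartiles, ranges and SDs of log2 counts were computed over genes with Python 3.11.15, numpy 2.4.6 and pandas 2.3.3. Of these, the medians and SDs were tested on simulated data. Counting error is 100 divided by the square root of the mean count, in percent.

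The members, the gene lists and the assignment of proteins to subunits and sites, from the mammalian mitoribosome, were chosen with earlier results of these data known. The genes named are the 10 with the most and the 10 with the fewest reads, those at the described sites, those whose human counterparts are linked to heart disease, those whose name or identifier needed comment and the neighbours of other listed genes. The rule's clause on paralogs took mrps18a, mrps18b and mrps18c, which had mean counts of 292.7, 318.8 and 199.9. Alternatives were a minimum count, the geometric mean, the letter of the symbol as subunit, and leaving out members.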

Additional observations from a re-analysis of the deposited data

How the results depend on the processing

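All 9 alternatives stayed within 1.5 times of the values reported, but some could not have moved. Every member lay above 10 normalized reads, so that minimum could not change the median of the members. Leaving out mrps36 could only take the number of members above the median of all genes from 76 to 75. The geometric mean of the genes above 0, 70.3, lies below that median, 79.6, so all 76 also had to lie above it. Leaving out so few of the 76 members could move their median only slightly. The median of the members was 270.0 without mrps36, and it was 273.5 both without the 2 identifiers absent from the current names and with a minimum of 10 normalized reads. The first 2 of these were chosen after seeing the data. The large subunit median was 0.973 times the small subunit median, 0.907 times with the subunit taken from the symbol, and 1.04 times with geometric means, so that which subunit was read more turned with the summary. The class with bacterial counterparts stood at 1.03 times the class particular to mitochondria, and at 1.04 times with geometric means. Scaling by coding or transcript length, shorter motifs, and the alternatives to the tests on counts (DESeq2, no filter, leaving out replicates) were not run. No paired analysis was possible because the table holds no values per sample. The table's single mean per gene is the main limit: it carries no spread between samples and no group.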

Other observations

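By quartiles, the genes of proteins that assist the mitoribosome had more uneven read counts than the genes of the ribosomal proteins. The quartiles were 3.29 times apart for translation factors, 4.14 for aminoacyl-tRNA synthetases and 3.38 for assembly factors. For the members they were 1.72 times apart. Among 12 mitochondrial translation factor genes the mean counts ran from 27.8 normalized reads for mtrf1l, a release factor, to 1511 for tufm, the elongation factor that delivers transfer RNA, with a median of 156.2. The initiation factors mtif2 and mtif3 had 177.0 and 71.0, and the elongation factor gfm1 had 493.8. The 17 rows of mitochondrial aminoacyl-tRNA synthetases had a median of 67.8, from 462.0 for iars2 to 6.34 for the second of 2 rows listed as yars2, the first of which had 50.1. Their median was below the lowest member chosen by name, 92.5 for mrpl53. It was above the 40.8 of ict1, the row of mrpl58.

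The 22 assembly factor genes of the mitoribosome had a median of 110.0 and a range of 18.8 for mrm1, a ribosomal RNA methyltransferase, to 280.5 for malsu1, which binds the large subunit during its assembly. In mitochondrial transcription, lrpprc, which stabilises mitochondrial messenger RNAs, had 1999 and its partner slirp had 168.4. The gene tfam, whose protein packages the mitochondrial genome, had 330.9, and that of the polymerase, polrmt, had 132.8. The lists were compared by reads, without lengths and without a test.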
